A study of Homo sapiens with 4 samples.

Results

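The ends of convergent coding gene pairs are the places where 2 neighbouring protein-coding genes run towards each other and stop. They were taken from GENCODE release 44 on chromosomes 1 to 22 of hg38. The left gene of a pair lies on the plus strand, the right gene on the minus strand, and the annotated gene ends lie within 5 kb of each other. The interval between the ends, or the stretch over which the genes overlap, was extended by 1 kb on either side. Of 19111 coding genes, 3556 formed 1778 such pairs, and 11 pairs in which a gene lies wholly inside its neighbour were not counted. The intervals were 2002 to 6997 bp wide, with a median of 3276 bp, and covered 6.517 Mb. In 690 pairs the genes overlapped, by a median of 1018 bp, and in 1088 pairs the ends lay apart, by a median of 1434 bp. The members are the peaks that overlap an interval: 711 of 94628 SMC1 peaks and 458 of 61417 CTCF peaks on these chromosomes.

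HiChIP joins chromatin fragments that lie close together in the nucleus and then pulls down those bound by a protein, so that it gives both peaks of binding and loops. The cells were HG00731, a lymphoblastoid cell line, which is a B cell line immortalised with Epstein-Barr virus. The 2 groups were SMC1 FA-EGS HiChIP, in which cells were fixed with formaldehyde (FA) and then with the longer cross-linker EGS, and CTCF FA-HiChIP, fixed with formaldehyde alone. Each had 2 replicates of the same untreated line, which the authors pooled, so that every target has a single list of peaks and a single list of loops. They therefore hold no spread between replicates and no depth per replicate, and no test between groups or windows was possible. Target and fixation differ together and cannot be told apart. Shares carry a 95% Wilson interval and medians a 95% interval from the ranks. Both cover counting error only, and neighbouring windows are not independent. Since the line is a B cell line, starts of B cell genes were checked: 8 of 10 B cell marker genes had an SMC1 peak within 1 kb of their start (CR2 and BLK had none), against 1 of 6 T cell, 3 of 5 liver, 1 of 4 neuron and 0 of 4 muscle markers. With 1 line and no comparison, these counts describe the list only.

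Cohesin is a ring-shaped complex that holds DNA strands together and extrudes chromatin loops, and SMC1 is a structural subunit of the ring. CTCF binds DNA at an asymmetric motif and halts cohesin that arrives from the side its motif faces. Cohesin is loaded mainly at active regions. Moving polymerases can push it along genes, and in yeast and in mammalian cells depleted of CTCF and of the cohesin release factor WAPL it collects where genes converge. The comparison made here is whether peaks lie at convergent gene ends in cells that keep CTCF, and how these peaks differ from those at the starts of the same genes.

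The sequences below show the CTCF motif at or beside the ends, because it is the feature by which peaks with and without CTCF differ and which the choice of members did not use. The motif learned from 3000 strong CTCF summits elsewhere reads CCACNAGGGGGCGNNNNNN. N stands for any letter at a position where no base reached a majority. Each line gives the best match within 50 bp of the CTCF summit, 5′ to 3′ on the strand named, from the hg38 reference, with letters that match the motif in capitals. The sites of EMP3/TMEM143 and TRIP10/SH2D3A lie outside the interval, under a CTCF peak that overlaps the SMC1 peak reaching into it, and the others lie inside. The first 8 belong to the pairs with the strongest SMC1 peaks that overlap a CTCF peak, the last 4 to the pairs with the strongest CTCF peaks and no SMC1 peak.

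MAST2/PIK3R3, chr1:46037281-46037299, minus strand: ggACtAGaaGGCtgagggg
EMP3/TMEM143, chr19:48333873-48333891, plus strand: tCtgctGaGGGCcggggtc
NANOS3/BRME1, chr19:13880281-13880299, plus strand: CCgCccGGcGGaGccagag
ELOVL3/PITX3, chr10:102229932-102229950, plus strand: CCACgAGGtGGCGccgcag
CD5/VPS37C, chr11:61130098-61130116, plus strand: gggCgAGcGGGCaagggag
CDK3/EVPL, chr17:76005767-76005785, minus strand: CCAgcAGGGGGCGcccttt
TRIP10/SH2D3A, chr19:6753466-6753484, minus strand: CCgCaAGGtGGCagcccag
RAI1/SREBF1, chr17:17812377-17812395, minus strand: aCtgcAGGGGcCGagccat
NDUFAF3/IMPDH2, chr3:49022621-49022639, minus strand: aCtgcAGGaGGaGacagag
GAS2L1/RASL10A, chr22:29313325-29313343, minus strand: CCtgcAGGGGGCGctgcat
DGCR8/TRMT2A, chr22:20111157-20111175, minus strand: CCcatAGGGGcCaccagtc
NUDT17/PIAS3, chr1:145849561-145849579, plus strand: CCAggAGGGGGCGccggag

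Of the first 8 sites, those at NANOS3/BRME1 (10.4 bits), ELOVL3/PITX3 (18.8 bits), CDK3/EVPL (19.01 bits) and TRIP10/SH2D3A (15.9 bits) passed the minimum score of 9.445 bits, which 5% of control windows reach. Sites at MAST2/PIK3R3 (6.858 bits), EMP3/TMEM143 (5.273 bits), CD5/VPS37C (4.253 bits) and RAI1/SREBF1 (6.534 bits) scored below it, so that these strong summits carry no clear match within 50 bp. Among the last 4, NUDT17/PIAS3 had the highest score of the 12, with 20.04 bits, followed by GAS2L1/RASL10A with 16.9 bits and NDUFAF3/IMPDH2 with 10.01 bits. DGCR8/TRMT2A stayed below the minimum with 8.968 bits.

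Convergent ends held fewer peaks than the starts of the same genes. An SMC1 peak overlapped 596 of 1778 end intervals (33.5%, 95% interval 31.4 to 35.8), and 2488 of 3556 start windows of the same width (70.0%, 68.4 to 71.5). A CTCF peak overlapped 389 end intervals (21.9%, 20.02 to 23.9) and 1768 start windows (49.7%, 48.1 to 51.4). The background is set by the 5479 intervals between neighbouring coding genes of any orientation. Of these, 59.9% held an SMC1 peak and 42.2% a CTCF peak, and convergent ends lay below both shares. This background includes the convergent ends, and its other intervals hold a gene start. The order therefore restates the difference between ends and starts. Widths were not matched here, with medians of 3276 bp for convergent, 4023 bp for tandem and 2331 bp for divergent intervals. Intervals between tandem neighbours, which hold a gene start, had an SMC1 peak in 64.5% of 2135 cases, and those between divergent neighbours, which hold both starts, in 83.6% of 1566.

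Ends with no close neighbour held still fewer peaks. Of 10560 lone coding gene ends in windows of 3276 bp, 1969 overlapped an SMC1 peak (18.65%, 17.9 to 19.4) and 1342 a CTCF peak (12.7%, 12.1 to 13.4). In tiles of the same width over chromosomes 1 to 22 the shares were 12.1% and 7.674%. These windows also differ in base composition. GC content was 48.6% at convergent ends, 43.6% at lone ends and 52.9% at the starts, and sites of the restriction enzyme DpnII (GATC) numbered 2.386, 2.484 and 2.566 per kb. Within the convergent ends, intervals with an SMC1 peak had 50.3% GC and those without 47.6%. The part of base composition in these shares was not tested.

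**Figure D1:**
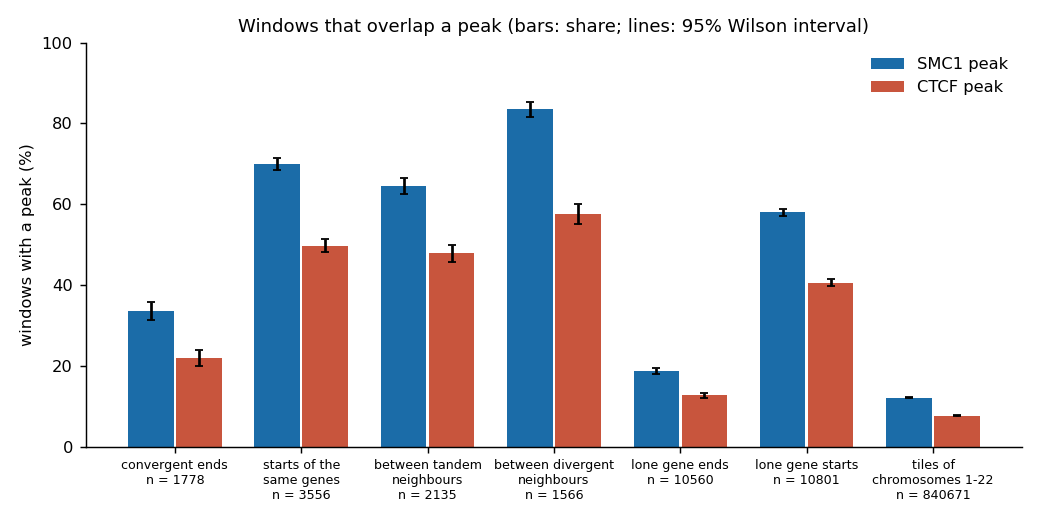
Share of windows (y axis, %) that overlap an SMC1 peak (blue) or a CTCF peak (red) by at least 1 bp, for each kind of window (x axis, with its number). Bars are shares of the pooled lists and lines are 95% Wilson intervals; convergent ends, at 33.5% and 21.9%, lie between lone gene ends and every kind of window that holds a gene start.

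Peak coverage at the centre of the convergent ends lay little above that of the surroundings. The base midway between the gene ends was covered by an SMC1 peak in 7.368% of pairs. Over the 10 kb on either side, in steps of 250 bp, this share ranged from 5.737% to 8.549%, and its highest value lay 2250 bp to the left of the centre. For CTCF the centre had 4.162% and the range was 2.868% to 4.612%. The starts of the same genes had 35.3% SMC1 and 18.95% CTCF coverage at the start base, against medians of 5.498% and 2.925% at 5 kb or more from it. At lone gene ends the SMC1 coverage was 3.788% at the end base and 4.891% (median) at 5 kb or more.

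**Figure D2:**
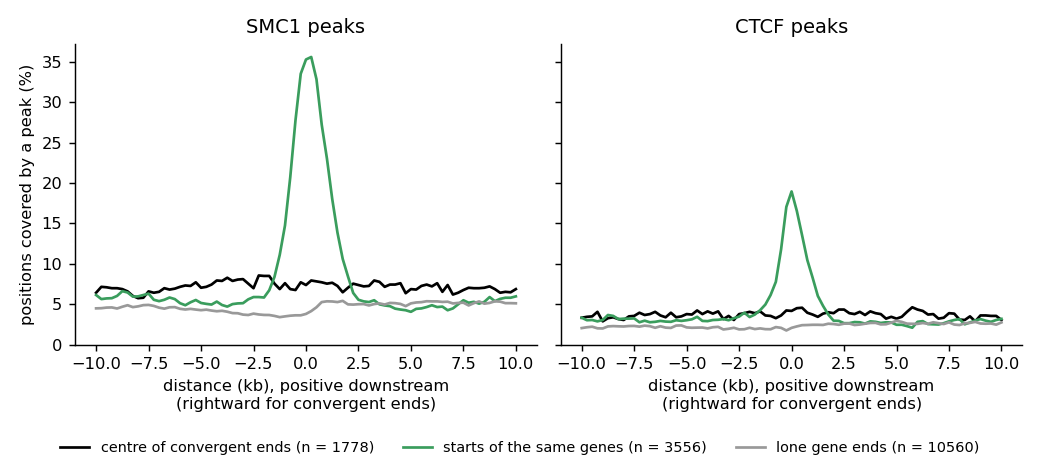
Share of positions (y axis, %) covered by an SMC1 peak (left) or a CTCF peak (right) against the distance in kb (x axis) from the centre of 1778 convergent ends (black), 3556 starts of the same genes (green) and 10560 lone gene ends (grey), in steps of 250 bp. The starts rise to 35.6% for SMC1 and 18.95% for CTCF, while the convergent ends stay between 5.737% and 8.549% for SMC1.

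Summits were spread over the intervals much as their bases were. Of the members, 584 SMC1 and 392 CTCF summits lay inside an interval, at a median of 540.5 bp (479 to 603) and 517.5 bp (473 to 587) from the nearer gene end. The remaining peaks reached into an interval with an edge only. Of the SMC1 summits, 38.7% lay in a 3′ UTR, 10.1% in a coding exon, 18.0% in an intron and 32.2% outside coding genes. The bases of the intervals were 40.6%, 10.1%, 19.6% and 29.4% in the same order. SMC1 summits without CTCF lay in a 3′ UTR in 42.6% of 289 cases and those with CTCF in 34.9% of 295. Where the ends lay apart, there were 99.7 SMC1 summits per Mb between the ends and 86.4 per Mb in the extension inside the genes. Where genes overlapped, there were 81.6 per Mb in the overlap and 86.2 per Mb beside it.

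The share of intervals with a peak followed the width of the interval. It was 28.5% for SMC1 in 435 pairs with ends 0 to 1000 bp apart, 35.75% in 386 pairs with 1001 to 3000 bp and 45.7% in 267 pairs with 3001 to 5000 bp. Overlaps of up to 1000 bp gave 26.3% of 342 pairs and longer overlaps 35.1% of 348. Per Mb of interval the order turned, with 117.4 intervals with an SMC1 peak per Mb at 0 to 1000 bp and 77.3 at 3001 to 5000 bp. The shares on either side of the 5 kb limit lay within counting error of each other. Of 50 pairs with ends 4501 to 5000 bp apart 28 had an SMC1 peak (56.0%, 42.3 to 68.8), and of 37 pairs just outside the limit, at 5001 to 5500 bp, 19 had one (51.4%, 35.9 to 66.6). CTCF gave 18 and 14 of these pairs.

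Most intervals held either no peak or a single one. An SMC1 and a CTCF peak occurred together in 332 intervals (18.7%), SMC1 alone in 264 (14.85%), CTCF alone in 57 (3.206%) and neither in 1125 (63.3%). These classes count peaks that touch the interval. An SMC1 peak that overlaps a CTCF peak anywhere was found in 350 intervals, more than the 332. Some of the 264 thus hold an SMC1 peak that overlaps CTCF beside the interval. A single SMC1 peak was found in 490 intervals, 2 in 97 and at least 3 in 9. For CTCF the counts were 326, 58 and 5.

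Pairs whose starts held SMC1 also held SMC1 at their ends more often. The end interval had an SMC1 peak in 42 of 223 pairs with no SMC1 peak at either start (18.8%, 14.3 to 24.5), in 191 of 622 with a peak at 1 start (30.7%, 27.2 to 34.4) and in 363 of 933 with peaks at both (38.9%, 35.8 to 42.1). CTCF at the ends showed a smaller range, with 16.6%, 22.5% and 22.7% in the same classes, and the intervals of these 3 shares overlap. By the number of starts with a CTCF peak, CTCF lay at the ends of 88 of 498 pairs with none (17.7%, 14.6 to 21.3), 174 of 792 with 1 (21.97%, 19.2 to 24.98) and 127 of 488 with both (26.02%, 22.3 to 30.1), and the first and last intervals do not overlap. An end with SMC1 while both starts lacked it was uncommon, with 42 of 1778 pairs (2.362%), whereas 1001 pairs (56.3%) had SMC1 at a start and none at the ends. Where both had a peak, the end held the higher -log10 q-value, the significance that MACS3 gives a peak, in 131 of 554 pairs for SMC1 (23.65%) and in 119 of 301 for CTCF (39.5%). In 216 pairs a gene is so short that a start window touches the end interval. In 47 pairs the strongest SMC1 peak at the ends is also the strongest at the starts. Of the 711 SMC1 members, 98 also meet a start window, of the same or another pair. The shares by number of starts with a peak were not recomputed without these shared peaks. Without the pairs that touch, the shares with an SMC1 peak were 31.4% at ends and 70.5% at starts.

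Annotated starts inside the end intervals moved with the peaks. A start of any annotated transcript, coding or noncoding, lay in 496 of the intervals, and 205 of these had an SMC1 peak (41.3%, 37.1 to 45.7). Of the 1282 intervals without any annotated start 391 had one (30.5%, 28.0 to 33.1), still above the 18.65% of lone gene ends, which were not divided in this way. CTCF gave 27.8% and 19.6%. Of the 711 SMC1 members, 211 had their summit within 1 kb of some annotated transcript start (29.7%, 26.4 to 33.1), against 23.1% of all SMC1 peaks.

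The SMC1 peaks at convergent ends fell into a stronger class that overlaps CTCF and a weaker class that does not. A CTCF peak overlapped 379 of 711 members (53.3%, 49.6 to 56.9), beside 47.0% of all SMC1 peaks and 53.1% of 2306 SMC1 peaks at lone ends. At the starts of the same genes 1823 of 3134 SMC1 peaks did so (58.2%, 56.4 to 59.9). This order turned with the threshold: when only peaks with a -log10 q-value from 10 upwards were kept in both lists, the share was 70.5% at ends and 52.7% at starts. Fold enrichment, a ratio of summit signal over that of the surroundings, had a median of 4.674 (4.320 to 5.099) in members that overlap CTCF and 2.637 (2.570 to 2.731) in the other 332. Their median -log10 q-values were 43.0 (36.2 to 49.7) and 6.703 (6.248 to 7.443), and their median widths 1054 and 451 bp.

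Peaks without CTCF were the weaker ones at the ends. SMC1 peaks without CTCF at the starts of the same genes had a median fold of 3.119 (3.050 to 3.178) and a median -log10 q-value of 13.3 (12.7 to 14.1), and the intervals do not overlap those at the ends. SMC1 peaks without CTCF at lone ends had 2.677 (2.641 to 2.724) and 6.884 (6.577 to 7.239), which overlap the values at convergent ends. The median of 4.674 of members that overlap CTCF lies within the interval around the 4.599 (4.502 to 4.681) of such peaks at starts. Over all members the median SMC1 fold was 3.284 (3.136 to 3.438), against 3.310 for all SMC1 peaks and 3.851 (3.780 to 3.917) at starts.

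CTCF peaks at convergent ends were stronger than those at the starts. They had a median fold of 5.847 (5.451 to 6.697) and a median -log10 q-value of 42.9 (33.9 to 54.5). At the starts of the same genes the medians were 4.805 (4.678 to 4.995) and 20.35 (19.2 to 22.2), and over all CTCF peaks 4.964 and 19.3. Lone ends, with 5.697 (5.372 to 5.970), overlapped the fold at convergent ends. An SMC1 peak overlapped 369 of the 458 CTCF members (80.6%, 76.7 to 83.9), beside 75.8% of all CTCF peaks, 90.1% at the starts of the same genes and 76.5% at lone ends.

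**Figure D3:**
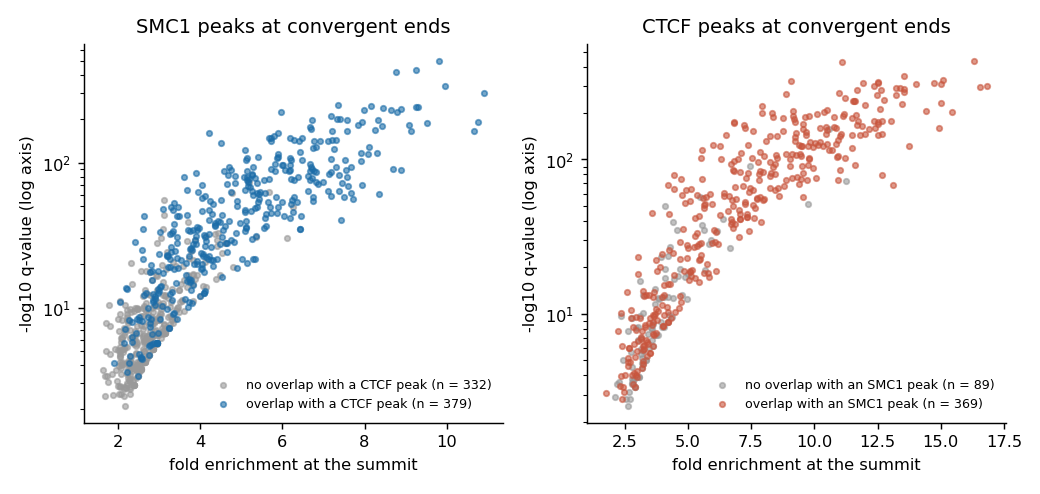
Fold enrichment at the summit (x axis) and -log10 q-value (y axis, log scale) of the 711 SMC1 (left) and 458 CTCF (right) peaks at convergent ends, 1 point per peak of the pooled lists. Coloured points overlap a peak of the other protein and grey points do not; the 332 grey SMC1 points gather at low values, with medians of 2.637 and 6.703.

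The motif followed the same classes. A site above the minimum score lay within 50 bp of the summit in 125 of 458 CTCF members (27.3%, 23.4 to 31.6), 447 of 2069 CTCF peaks at the starts (21.6%, 19.9 to 23.4) and 18.9% of all CTCF summits on even-numbered chromosomes. SMC1 members that overlap CTCF had a site in 95 of 379 cases (25.1%, 21.0 to 29.7). SMC1 members without CTCF had a site in 23 of 332 (6.928%, 4.660 to 10.2), and the interval of this share holds the 5% of the control windows. Among all SMC1 summits on even-numbered chromosomes, 19.75% of those with CTCF had a site. Of those without CTCF, 4.356% (4.107 to 4.620) had one, which lies just below the interval of the members. Control windows were not matched for GC content. HiChIP reads lie next to restriction cuts, and summits need not sit on the bound site. In a window of 250 bp on either side, chosen after the data were seen, 72.5% of CTCF members, 73.6% of SMC1 members with CTCF and 36.1% (31.2 to 41.4) of those without had a site, and 23.1% of control windows did.

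High-scoring motif matches at the ends were often without a CTCF peak. A site of the score that 10% of CTCF summits reach lay somewhere in 767 of 1778 end intervals (43.1%) and in 1855 of 3556 start windows of the same width (52.2%). Of the end intervals with such a site, 284 had a CTCF peak (37.0%, 33.7 to 40.5), and of those without it 105 of 1011 (10.4%, 8.653 to 12.4). At the starts these shares were 58.5% and 40.1%. SMC1 overlapped 45.0% of end intervals with such a site and 24.8% of those without. No control windows of this width were scored, and ends and starts differ in GC content. How many of these matches arise by base composition alone was not tested.

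Sites at the ends faced both sides in near equal numbers. Of the 125 CTCF members with a site, 61 carried it on the plus strand and 64 on the minus strand. Loops left these intervals mainly towards the side the motif faces. In the loop list labelled SMC1, 126 of 160 loops from intervals with plus-strand sites only ran to the right, and 58 of 163 loops from intervals with minus-strand sites only. In the list labelled CTCF the counts were 186 of 253 and 71 of 222. Loops of 1 interval share that interval. Counted by interval, without those that had equal numbers of loops to both sides, 23 of 35 plus-strand and 10 of 34 minus-strand intervals had more loops to the right in the SMC1-labelled list, and 27 of 41 and 14 of 47 in the CTCF-labelled list.

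The loop lists give pairs of 5 kb bins with more read pairs than a background model predicts. Their labels and the study disagree on which list belongs to which target. The loop total that the study gives for SMC1 is that of the list labelled CTCF. The total in its supplementary material for CTCF is that of the list labelled SMC1. The peak totals match their labels. The labels of the loop lists are thus probably exchanged, which the lists alone cannot settle. Each is named here by its label only, and the 2 lists are to be read with this likely exchange of targets in mind. An anchor overlapped 445 end intervals in the SMC1-labelled list (25.03%, 23.1 to 27.1) and 681 in the CTCF-labelled list (38.3%, 36.1 to 40.6). The starts of the same genes had 32.2% and 54.7%, and lone ends 13.8% and 27.0%. A list with more loops touches more intervals, and the lists hold 28012 and 80487 loops.

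Anchors were most frequent at intervals with both peaks. In the list labelled SMC1, 181 of 332 intervals with both peaks lay in an anchor (54.5%, 49.1 to 59.8), 17 of 57 with CTCF alone (29.8%, 19.5 to 42.7), 51 of 264 with SMC1 alone (19.3%, 15.0 to 24.5) and 196 of 1125 with neither (17.4%, 15.3 to 19.75). In the list labelled CTCF these shares were 73.2%, 38.6%, 42.8% and 26.9%. Intervals with SMC1 alone thus lay within counting error of intervals with neither peak in the first list, and above them in the second, where the intervals of 42.8% (37.0 to 48.8) and 26.9% (24.4 to 29.6) do not overlap. Some intervals with SMC1 alone hold an SMC1 peak that overlaps a CTCF peak beside the interval. Loop calling used the peaks as anchors, so that peaks and anchors are not independent.

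**Figure D4:**
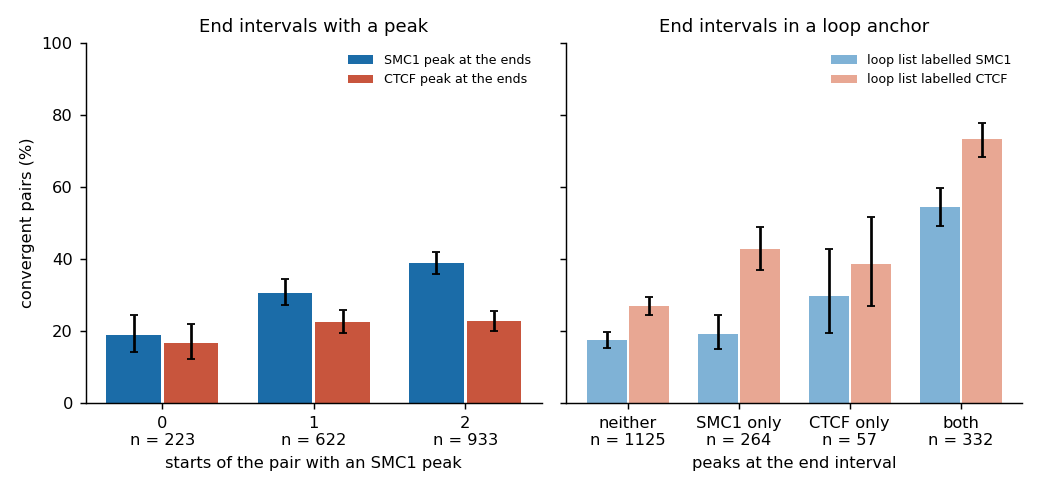
Left, share of convergent pairs (y axis, %) with an SMC1 (blue) or CTCF (red) peak at their ends, by the number of starts of the pair with an SMC1 peak (x axis). Right, share of end intervals in a loop anchor of the list labelled SMC1 (light blue) or CTCF (light red), by the peaks at the interval; lines are 95% Wilson intervals, and the highest shares, 54.5% and 73.2%, belong to intervals with both peaks.

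Loops of end intervals reached coding gene starts more often than loop ends of the lists in general did, and other convergent ends about as often. They took part in 1327 loops of the SMC1-labelled list and 2604 of the CTCF-labelled list, with a median span of 110 and 100 kb, beside 130 and 125 kb in all loops of the lists. The other anchor lay within 1 kb of a coding gene start in 417 of these loops (31.4%) and in 745 (28.6%), against 20.9% and 17.7% of all loop ends. It met another convergent end interval in 27 (2.035%) and 51 loops (1.959%), against 2.437% and 1.672% of all loop ends. It lay at a start of the same pair in 78 (5.878%) and 160 (6.144%). The other anchor held a CTCF peak in 79.6% and 73.7% of the loops. This share was not computed over all loop ends, and loop calling used the peaks as anchors. These 2 values are thus not shown to be particular to convergent ends.

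The loops with the most read pairs spanned 20 to 190 kb. The ends of JUNB, an AP-1 transcription factor gene, and PRDX2, which codes for a peroxiredoxin, formed the loop with the most read pairs in both lists, with 426 read pairs (94.55 expected) in the SMC1-labelled list and 850 (165.8 expected) in the CTCF-labelled list. It spans 20 kb, and its other anchor covers chr19:12775001-12780000. The MAST2/PIK3R3 ends had a loop of 576 read pairs over 140 kb in the list labelled CTCF, to an anchor at the starts of P3R3URF and TSPAN1. NANOS3/BRME1 had 207 read pairs over 190 kb in the list labelled SMC1, to the start of MISP3. SHMT2/NDUFA4L2 (250 read pairs over 25 kb, list labelled SMC1) and GMPR2/TINF2 (399 over 55 kb, list labelled CTCF) had no SMC1 or CTCF peak in the interval itself, and here the 5 kb anchor reaches beyond it.

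Named pairs show the range of the members with both proteins. MAST2 codes for a serine/threonine kinase and PIK3R3 for a regulatory subunit of PI3-kinase, and their ends lie 4017 bp apart on chromosome 1. The SMC1 summit there, 1172 bp beyond the MAST2 end, had a fold of 9.817 and a -log10 q-value of 500.4, the highest of all SMC1 members, and the CTCF summit 3 bp away had 16.3 and 432.9. The starts were weaker, with SMC1 -log10 q-values of 3.356 at MAST2 and 109.2 at PIK3R3. The interval took part in 28 loops of the SMC1-labelled list and 27 of the CTCF-labelled list.

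NANOS3, a germ cell RNA-binding protein gene, meets BRME1, a meiotic recombination gene, on chromosome 19. Its SMC1 peak lies in an intron of NANOS3, near the gene end, with a fold of 8.768 and a -log10 q-value of 420.9, and the interval had 35 and 40 loops, the most of all end intervals in either list. ELOVL3, a fatty acid elongase gene, and PITX3, a homeobox gene, end 599 bp apart on chromosome 10. Their SMC1 and CTCF summits coincide at a base outside both genes, with folds of 9.950 and 12.4. The ELOVL3 start had no peak of either protein.

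CD5 codes for a surface receptor of lymphocytes and VPS37C for a subunit of the ESCRT-I complex. The SMC1 fold of 10.9 at their ends was the highest among SMC1 members, the CTCF fold of 16.8 the highest among CTCF members, and the CD5 start held no peak of either protein. CDK3, a cyclin-dependent kinase gene, and EVPL, which codes for the cornified envelope protein envoplakin, overlap by 1498 bp, and the SMC1 peak (fold 7.355) lies in the 3′ UTR of CDK3 and an intron of EVPL while neither start had an SMC1 peak. RAI1 and SREBF1, a sterol-regulated transcription factor gene, overlap by 1055 bp. Their SMC1 peak (fold 9.249) lies in the 3′ UTR of SREBF1. At EMP3/TMEM143 and TRIP10/SH2D3A, the other pairs of these 8, the SMC1 peak reaches into the interval with its edge, and its summit and the CTCF peak lie outside, in introns of TMEM143 and SH2D3A.

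Among intervals that no CTCF peak overlaps, the 8 highest SMC1 values all belonged to peaks with their summit outside the interval. Each of these 8 SMC1 peaks overlapped a CTCF peak that lies outside the interval, so that none of them is an SMC1 peak without CTCF. At ILK/TAF10, for example, the peak (-log10 q-value 141.8) has its summit in the 5′ UTR of ILK, and at MED9/RASD1 (93.47) in the 5′ UTR of RASD1. The others were EMP3/TMEM143, TRIP10/SH2D3A, TREX1/SHISA5, FAM166C/CIB4, ARHGAP45/POLR2E and TTC23L/RAD1. With the summit required inside, a rule added after the data were seen, the strongest was ADO/EGR2 on chromosome 10, with a fold of 5.180 and a -log10 q-value of 73.0. ADO codes for a thiol dioxygenase and EGR2 for a zinc finger transcription factor. That summit lies outside both genes, 465 bp from the EGR2 end, and the interval had 2 loops in the SMC1-labelled list and 17 in the CTCF-labelled list.

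The next were JPH3/KLHDC4 (62.65), in the 3′ UTR of KLHDC4, and BOLA1/SV2A (49.2). F2RL3/CPAMD8 (39.3), in the 3′ UTR of CPAMD8, had no SMC1 or CTCF peak at either start. SNN/TXNDC11 (32.9) and IRAG2/DNAI7 (32.25) had their summits in the 3′ UTR of SNN and of IRAG2. HIGD2A/CLTB (31.3) and SREBF2/SHISA8 (30.3) closed the list, and at HIGD2A, a very short gene, the peak at the ends is also the peak at the start. All 8 lie far below the 500.4 of the strongest member with CTCF.

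The 4 strongest CTCF peaks in intervals without SMC1 had -log10 q-values from 49.9 to 91.2. NDUFAF3/IMPDH2, an assembly factor of respiratory complex I and an enzyme of guanine nucleotide synthesis, had a CTCF -log10 q-value of 91.2 in an intron of NDUFAF3. GAS2L1/RASL10A had 72.05, in a coding exon of RASL10A. DGCR8, a subunit of the microRNA processor, and TRMT2A gave 51.1, in the 3′ UTR of DGCR8. NUDT17/PIAS3 gave 49.9, in a coding exon of PIAS3, a SUMO ligase gene, although both starts of this pair had SMC1 (64.4 and 42.8). CTCF members without SMC1 were narrow, with a median width of 295 bp, against 661 bp for those with SMC1.

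Strong starts did not come with peaks at the ends in every pair. FERMT3, an integrin activator gene of blood cells, and TRPT1 had SMC1 -log10 q-values of 244.5 and 147.5 at their starts and no peak of either protein at their ends, which overlap by 98 bp. TM7SF2/ZNHIT2 had 136.9 and 137.1 at the starts, VWA5B2/ALG3 247.8 and 113.2, and CACNB3/DDX23 111.8 and 189.8. None of these 4 end intervals held a peak.

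Of the gene groups, pairs with a ribosomal protein gene and pairs with a B cell or immune gene had the highest shares. The ribosomal genes are transcribed strongly in every growing cell. An SMC1 peak lay at the ends of 12 of 22 such pairs (54.5%, 34.7 to 73.1), against 33.5% of all pairs. Of the 12, 10 had no CTCF peak in the interval, beside 264 of the 596 intervals with SMC1 among all pairs. The 10 include RPL23A/TLCD1, where the SMC1 peak overlaps a CTCF peak outside the interval. SMC1 peaks of the group were weak, with a median fold of 2.972 and a median -log10 q-value of 9.284. Many of these genes are short: in 10 of the 22 pairs a start window touched the end interval, and 7 of these had an SMC1 peak at the ends, against 5 of the other 12 (41.7%). Summits lay inside the interval in 7 pairs, among them RPS16 (fold 2.919), RPL29 (2.972), RPS23 (3.496), RPS6 (2.296) and RPL28 (2.538). At RPS28 (fold 5.999) and RPS27 (3.123) the peak at the ends is the peak of the gene's own start. The lower bound of the group's share, 34.7%, lies just above the 33.5% of all pairs, in 1 of 10 groups that were set side by side without a test. The group was taken by gene symbol and includes RPL7L1, a ribosomal protein-like gene, whose pair is among the 12 with a peak. The share without it was not computed, and with so narrow a margin the group is not shown to stand above all pairs.

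Pairs with a B cell or immune gene had both proteins at their ends in 7 of 9 cases (77.8%, 45.3 to 93.7), against 18.7% of all pairs. This too is 1 of the 10 groups set side by side, and it was not tested. At CXCR5/BCL9L, a chemokine receptor of B cells and a Wnt pathway gene, the SMC1 fold was 5.597 and the CTCF fold 7.025, in the 3′ UTRs of both genes. CD80, a costimulatory ligand, shares a peak with TIMMDC1 in their overlapping 3′ UTRs, with folds of 4.296 and 7.064. TCOF1/CD74 had 6.717 and 11.2 in an intron of TCOF1, with the summits just outside the interval. POU2F2, the lymphoid octamer factor gene, and ZNF574 had 3.930 and 9.303. CD72 and TESK1 had 2.848 and 7.556, with both summits outside the interval. RELA, an NF-kappaB subunit gene, and SIPA1 had 3.903 and 3.683, and CD37 and TEAD2 2.221 and 2.634. In these last pairs the strongest SMC1 and the strongest CTCF peak are separate and do not overlap. Each interval still holds SMC1 that overlaps CTCF, namely both SMC1 peaks at SIPA1/RELA and the weaker of 2 at CD37/TEAD2. NFKB2/PSD had strong starts (168.5 and 62.6) and no peak at the ends, and TNF/LTB had no peak at the ends or at either start.

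The other groups had shares whose intervals hold the 33.5% of all pairs. SMC1 lay at the ends of 3 of 13 pairs with a mitochondrial ribosome gene, 4 of 26 with a respiratory chain gene, 5 of 13 with a proteasome gene and 2 of 7 with an aminoacyl-tRNA synthetase gene. It lay at the ends of 11 of 47 zinc finger pairs, 5 of 19 ion channel pairs, 17 of 63 solute carrier pairs and 1 of 8 pairs with a keratin or collagen. The respiratory chain group had starts with SMC1 in 76.9% of its genes and the lowest share at the ends among groups of over 10 pairs, 15.4% (6.150 to 33.53).

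**Figure D5:**
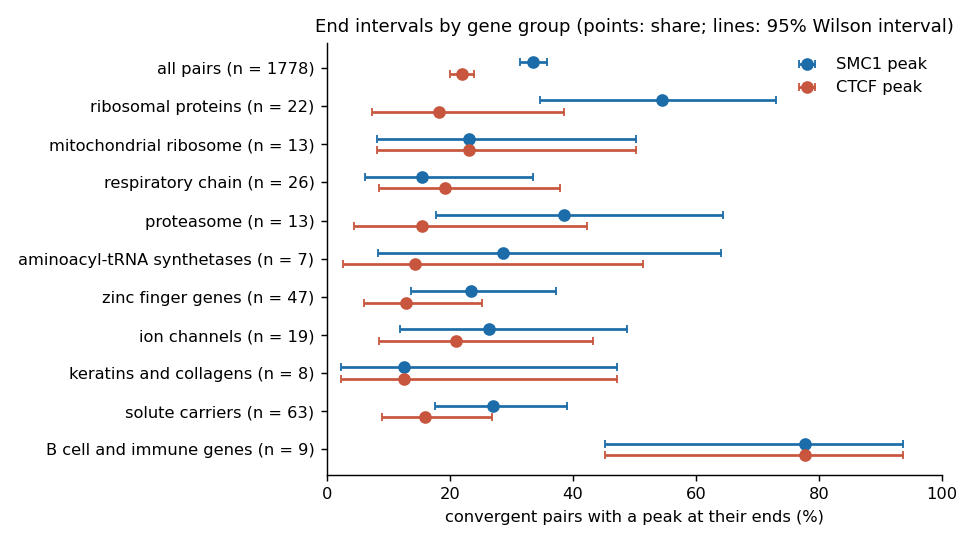
Share of convergent pairs with an SMC1 (blue) or CTCF (red) peak at their ends (x axis, %) for each gene group (y axis, with its number of pairs); points are shares and lines 95% Wilson intervals. Ribosomal protein pairs lie at 54.5% for SMC1 and 18.2% for CTCF, B cell and immune pairs at 77.8% for both, and all pairs at 33.5% and 21.9%.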

How the data were processed

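HG00731 cells were measured in 2 replicates of SMC1 FA-EGS HiChIP and 2 of CTCF FA-HiChIP. The authors mapped the reads with BWA-MEM (hg38), removed duplicates, pooled the replicates and called peaks with MACS3 3.0.1 without an input sample. The authors deposited for each peak the fold enrichment, a ratio of the summit to its surroundings in that library, and the −log10 of its q-value. Weak peaks were dropped at the deposited threshold, and the lowest −log10 q-values are 2.012 and 2.002. In the loop lists the authors deposited, for each MAPS bin pair at 5 kb, the raw count of its read pairs, beside the expected number. These counts sum to 788356 (SMC1-labelled list) and 2666327 (CTCF-labelled list), and neither list holds the depth of a replicate. The number of peaks limits the precision. 0 value columns were left unmapped.

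Peaks and intervals were matched by an overlap of at least 1 bp, with annotation from GENCODE release 44 and coordinates counted from 1. Start windows had the width of their pair's interval and were centred on the gene start. Reference and files share the build, and every peak lies within the chromosome ends. Expectation maximization on 3000 summits on odd-numbered chromosomes that are not members gave a CTCF motif of 19 bp. At most 1 site per window was allowed, a form chosen after the first gave a diluted matrix, and sites were counted above the score that 5% of windows 1000 bp away reach. Pairs named are the 8 strongest with SMC1 and CTCF, the 8 strongest with SMC1 in intervals without CTCF, the 4 strongest with CTCF and no SMC1, 4 without a peak but with the strongest starts, the 3 with the loops of most read pairs in each list, and those with a B cell or immune gene. Ribosomal protein genes were named after their values were seen. With a single pooled list per target, no test was made. The members and lists were chosen with earlier results of these data known. Overlap counts and motif learning were tested on simulated data. Alternatives were a stricter q-value, summits inside, no extension, closer ends, canonical transcripts, other start windows, exchanged loop lists and stronger loops. Python 3.11.15, NumPy 2.4.6, pandas 2.3.3, SciPy 1.17.1, Matplotlib 3.10.9 and pysam 0.24.0 did the work (seed 11).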

Additional observations from a re-analysis of the deposited data

How the results depend on the processing

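Under each alternative on peaks, pairs or windows the share of end intervals with a peak stayed below that of the start windows, for SMC1 and for CTCF. Of the 58 values recomputed, 26 moved by less than counting error and 32 by more; they are given as SMC1 at ends and starts, CTCF at ends and starts, and SMC1 peaks that overlap CTCF at ends and starts. Keeping peaks with a -log10 q-value from 10 upwards, these were 21.6%, 62.2%, 16.9%, 38.2%, 70.5% and 52.7%, and the median SMC1 fold at ends was 4.469, so that the order of the last pair turned. With summits inside the windows the moved values were 27.7%, 66.2%, 19.01% and 46.9%. The overlap at starts moved to 52.5% in this setting, counted over all 3134 SMC1 peaks there and not only those with summits inside. Without the 1 kb extension they were 20.3%, 56.7%, 12.4%, 37.5% and 62.9%, with a fold of 3.446. Gene ends within 1 kb gave 27.5% and 18.9% at the ends, 61.1% overlap at starts, and 27.2% and 42.6% of intervals in an anchor of the lists labelled SMC1 and CTCF. Bounds of canonical transcripts moved the starts to 72.4% and 51.4%. Start windows of 1 kb on either side gave 65.2%, 43.98% and 60.6%. With the loop lists exchanged the anchor shares were 38.3% and 25.03%, and loops with at least the median read pairs gave 17.3% and 27.2%. The cause of these shifts was not tested, beyond fewer peaks, narrower windows and fewer loops by construction. No paired analysis was possible because the lists pool both replicates and hold no value per replicate, and for the same reason no replicate could be left out. Peaks below the deposited threshold cannot be seen, so an interval without a peak is not shown to lack the protein.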

Other observations

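Convergent pairs were spread unevenly over the chromosomes, and so were their peaks. Chromosome 1 held 194 pairs and chromosome 19 held 180, while chromosome 18 held 8, none of which had an SMC1 or a CTCF peak at the ends. Among chromosomes with at least 39 pairs, the share with an SMC1 peak ran from 17.95% of 39 pairs on chromosome 4 and 19.4% of 108 on chromosome 2 to 44.3% of 79 on chromosome 9 and 46.3% of 67 on chromosome 10. For CTCF it ran from 7.692% on chromosome 4 to 30.5% of 141 pairs on chromosome 17. On chromosome 19 the shares, 33.3% and 20.6%, were close to those of all pairs. These are values of pooled lists, and chromosomes were not tested against each other.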
